A study of Arabidopsis thaliana with 12 samples.

Results

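Arabidopsis inflorescence tips were compared 7 days and 3 days after an AGAMOUS fusion protein had been switched on with a steroid. The comparison rests on the 4 arrays titled for steroid treatment on these days, 2 from day 7 and 2 from day 3, of 12 arrays in all. The other arrays hold mock-treated tips of days 1, 3 and 7 and steroid-treated tips of day 1, with 2 independent samples per treatment and day and 1 array per sample. The 4 mock arrays of days 3 and 7 served as a second comparison over the same days, which shares no array with the steroid comparison. Plants of all groups, controls included, were homozygous for ap1-1 and cal-1 and carried 35S:AGGR, a fusion of AGAMOUS to the rat glucocorticoid receptor. Growth was at 18 °C, in days of 16 h light and nights of 8 h. Steroid tips received 10 µM dexamethasone in 0.015% Silwet L-77, a wetting agent, with 0.1% ethanol, and mock tips received the same solution without dexamethasone. The 35S promoter is active in most plant cells, so the fusion was not limited to the cells that normally make AGAMOUS. No tips without the fusion received the steroid, so the effect of dexamethasone alone was not measured.

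AGAMOUS is a MADS-domain transcription factor that specifies stamens and carpels and ends the growth of the floral meristem. APETALA1 and CAULIFLOWER promote the step from inflorescence meristem to flower, and tips that lack both keep producing meristems in a cauliflower-like mass. Fusion to the receptor keeps AGAMOUS out of the nucleus until the steroid binds, so that organ formation starts at a chosen time across these meristems. By the later day such tips carry older and larger organ primordia, and organ growth draws on wall-loosening proteins, hormone receptors and the photosynthetic apparatus.

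The day 7 arrays were brighter than the day 3 arrays in both treatments. The deposited array medians were 32.2 and 20.1 in steroid tips on day 3 and 62.6 and 84.95 on day 7, against 23 and 26.6, then 84.8 and 95.2, in mock tips. Every array was therefore scaled to a common median of 24.8, and values below are scaled signal intensities or, for changes, differences of log2 signal with their standard error (SE). An offset of 4.35 was added before log2, which understates the change of weak signals. The ratio of the 3′ to the 5′ probe set of the GAPDH control was 6.60 and 15.8 in steroid tips on day 3 and 1.41 and 1.09 on day 7. Mock tips gave 8.36 and 12.2 on day 3 and 1.31 and 1.32 on day 7, so the ratio moved with day and not with treatment. No scan session held arrays of both days, so day, brightness, 3′ to 5′ ratio and scan cannot be told apart. On day 7 the mock arrays made up 1 session and the steroid arrays another, so treatment and scan cannot be told apart on that day either. Replicates agreed less well on day 3 (Pearson r across genes 0.888 in steroid tips) than on day 7 (0.982). The gene-name table leaves AGAMOUS and most organ identity genes unnamed, so the tissue could be checked through few markers only. Of 5 mature pollen genes 1 was tested, and of 2 root genes 1 was tested, and neither changed past the threshold.

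Between day 3 and day 7 the steroid tips changed widely, and nearly all of the change ran the same way in mock tips. Both day 7 arrays lay above both day 3 arrays in 32.8% of the probe sets tested in steroid tips and below them in 35.8%, and in mock tips the shares were 31.1% and 42.3%. Of 16511 probe sets tested, 4200 (25.4%) passed an adjusted p of 0.05 in limma and are called changed here. In all 4200 the steroid arrays of the 2 days did not overlap. Non-overlap given below for a called gene therefore adds no support beyond the call. Tips are mixed tissue, so fewer cells of a type and less RNA per cell cannot be told apart. Of the calls, 2507 (15.2% of those tested) were higher on day 7 and 1693 (10.3%) were lower. Rises reached further than falls: 1981 were at least 2-fold and 124 at least 8-fold, against 904 (5.48%) and 5 among the falls. Mock tips gave 4507 calls (27.3%), 2182 higher (13.2%) and 2325 lower (14.1%). A total of 3033 probe sets were called in both treatments, which is 72.2% of the steroid calls and 67.3% of the mock calls, and every one of them moved in the same direction. Another 43 steroid calls had a mock change of the opposite sign, 24 of them higher and 19 lower in steroid tips. Across all tested probe sets the changes in the treatments had a Pearson r of 0.854 and a Spearman rho of 0.826, a description across genes measured on the same arrays, with brighter arrays on day 7 in both treatments.

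**Figure D1:**
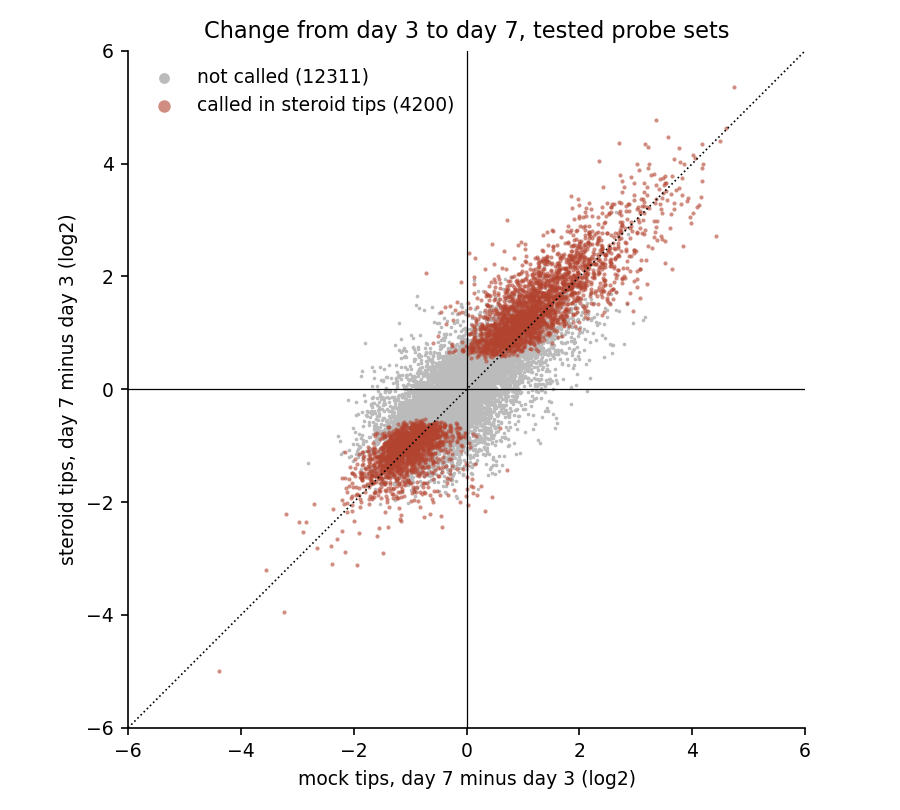
Change from day 3 to day 7 in steroid tips (vertical axis, log2) against the same change in mock tips (horizontal axis, log2) for 16511 tested probe sets, each a point. The 4200 probe sets called in steroid tips lie along the dotted line of equal change, and 43 of them have opposite signs in the treatments.

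The balance of rises and falls depended on the scaling. Rises made up 59.7% of the steroid calls after median scaling, 49.6% after quantile normalization and 48.8% where each array was centred on its tested probe sets. The median change over all tested probe sets was -0.06 with median scaling, -0.16 with that centring and 1.35 without scaling. With scan as a random block 2030 probe sets were called, and without steroid day 7 replicate 1 or replicate 2 the counts were 1691 and 1649. Of the rises, 400 (16.0%) were in probe sets below the 40th percentile on both day 3 steroid arrays. Of 147 called probe sets picked by the rule for individual description, 33 falls changed sign where the arrays were left unscaled, and no call changed sign under any other setting tried.

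Nuclear genes of photosynthesis rose more often than they fell, as did all tested probe sets (15.2% higher and 10.3% lower). Of 10 tested, 5 were higher and 2 lower (70% called, against 25.4% over all). Their median change was 0.79 against -0.06 over all tested probe sets. Mock tips gave 3 higher and 2 lower, with a median of 0.45. The gene for rubisco activase, RCA, which keeps the carbon-fixing enzyme rubisco active, had signals of 37.7 and 26.9 in steroid tips on day 3 and 375 and 429 on day 7. Both later arrays lay far above both earlier ones, a rise of 3.49 ± 0.32 on the log2 scale (11.2-fold, adjusted p = 2.21e-05). Mock tips rose by nearly the same 3.48, from 33.3 and 36.3 to 463 and 403.

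LHCB4.1 and LHCB4.2 encode CP29, a minor antenna protein of photosystem II. LHCB4.1 read 170.1 and 164 on day 3 and 478 and 513 on day 7, and LHCB4.2 read 34.6 and 22.3, then 95.0 and 102. Neither gene overlapped between days, and the rises were 1.54 ± 0.27 (adjusted p = 0.00148) and 1.68 ± 0.30 (adjusted p = 0.00169). PRK, the phosphoribulokinase of the Calvin cycle, rose by 1.12 ± 0.26 and PSBY, a small photosystem II protein, by 1.00 ± 0.20. The falls were in SBPASE, another Calvin cycle enzyme, and in PSBW, a further small photosystem II protein. SBPASE read 407 and 356 on day 3 and 180.2 and 207 on day 7, a change of -0.96 ± 0.18 (adjusted p = 0.00229). PSBW read 1106 and 979.8, then 573 and 603, a change of -0.82 ± 0.23. PRK and SBPASE, of the same cycle, thus moved in opposite directions, and both falls changed sign where the arrays were left unscaled. The PSBW call was lost with scan as a random block. The 3 others, ATPC1, LHCB4.3 and PSAN, gave 0.58, 0.38 and 0.02 and were not called.

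Of 68 tested genes of the plastid genome, 9 were higher and 19 lower on day 7 in steroid tips and 40 were not called. That is 41.2% called, against 25.4% of all tested probe sets, with a median change of -0.71. Mock tips gave 16 higher and 8 lower, with a median of 0.03. A total of 61 of the 68 changed to lower values in steroid than in mock tips relative to their own day 3, by a median of -0.75. Over all tested probe sets the median of this difference was 0.11, and the share below 0 was not counted. In 10 of the 68 plastid genes the difference had an unadjusted p under 0.05 in limma, against 2.42% of all tested probe sets. In none of them did it pass adjustment over all probe sets. The median signal of these genes on an array was 61.5 and 50.6 in steroid tips on day 3 and 41.5 and 47.8 on day 7, and 50.8 and 35.3, then 56.8 and 61.9, in mock tips. Genes of 1 organelle share each library, so they are not separate replicates of this shift.

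Among the falling plastid genes was atpE, for the epsilon subunit of ATP synthase. It read 2935 and 2337 on day 3 and 331 and 372 on day 7 in steroid tips, a change of -2.88 ± 0.49 (adjusted p = 0.00131), and mock tips changed by -2.16. The photosystem II gene psbN read 85.1 and 76.7, then 8.00 and 3.74, and fell by 3.09 in steroid tips, where mock tips changed by -2.38. The cytochrome c assembly gene ccsA, the splicing maturase gene matK and the RNA polymerase gene rpoA fell by 2.34, 2.30 and 1.73. The photosystem II core gene psbA changed by -1.74 ± 0.53, from 117 and 75.4 to 25.4 and 24.961. In these falling genes both day 7 arrays lay below both day 3 arrays.

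The rising plastid genes were rpl36, psbE, psbH, rpl22, psbK, psaJ, psbJ, psbF and rpl33. For psbE, which with psbF encodes cytochrome b559 of photosystem II, the signal was 54.4 and 40.5 on day 3 and 224 and 235 on day 7. That is a rise of 2.19 ± 0.33 (adjusted p = 0.000544), and mock tips rose by 2.61. The neighbouring genes psbE, psbF, psbL and psbJ are transcribed together, and in steroid tips they changed by 2.19, 1.67, 0.20 and 1.75, with psbL not called. The ribosomal protein gene rpl36 read 23.3 and 26.0, then 154 and 141, a rise of 2.39 ± 0.36. All 9 rising genes also rose in mock tips, by 1.97 to 3.07.

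Some plastid genes moved in 1 treatment only by the calls, although the difference itself did not pass adjustment. The photosystem I gene psaI read 128 and 135 on day 3 and 27.4 and 29.3 on day 7 in steroid tips, a change of -2.06 ± 0.33. Its mock signals of 54.0 and 40.6 and then 41.0 and 56.0 overlapped, a change of 0.03, and the difference was -2.09 ± 0.47 (unadjusted p = 0.000678). The ribosomal protein gene rps16 changed by -2.16 ± 0.44 in steroid tips and 0.33 in mock tips, a difference of -2.49 ± 0.62 (unadjusted p = 0.00152). In both genes the steroid tips started above the mock tips on day 3. With scan as a random block 9 plastid genes were called higher and 11 lower, and without steroid day 7 replicate 1 the counts were 8 and 8. Of 18 mitochondrial genes tested 1 was higher, cox1, and 1 lower, cox2, both for subunits of cytochrome oxidase. That is 11.1% called, against 25.4% of all tested probe sets.

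**Figure D2:**
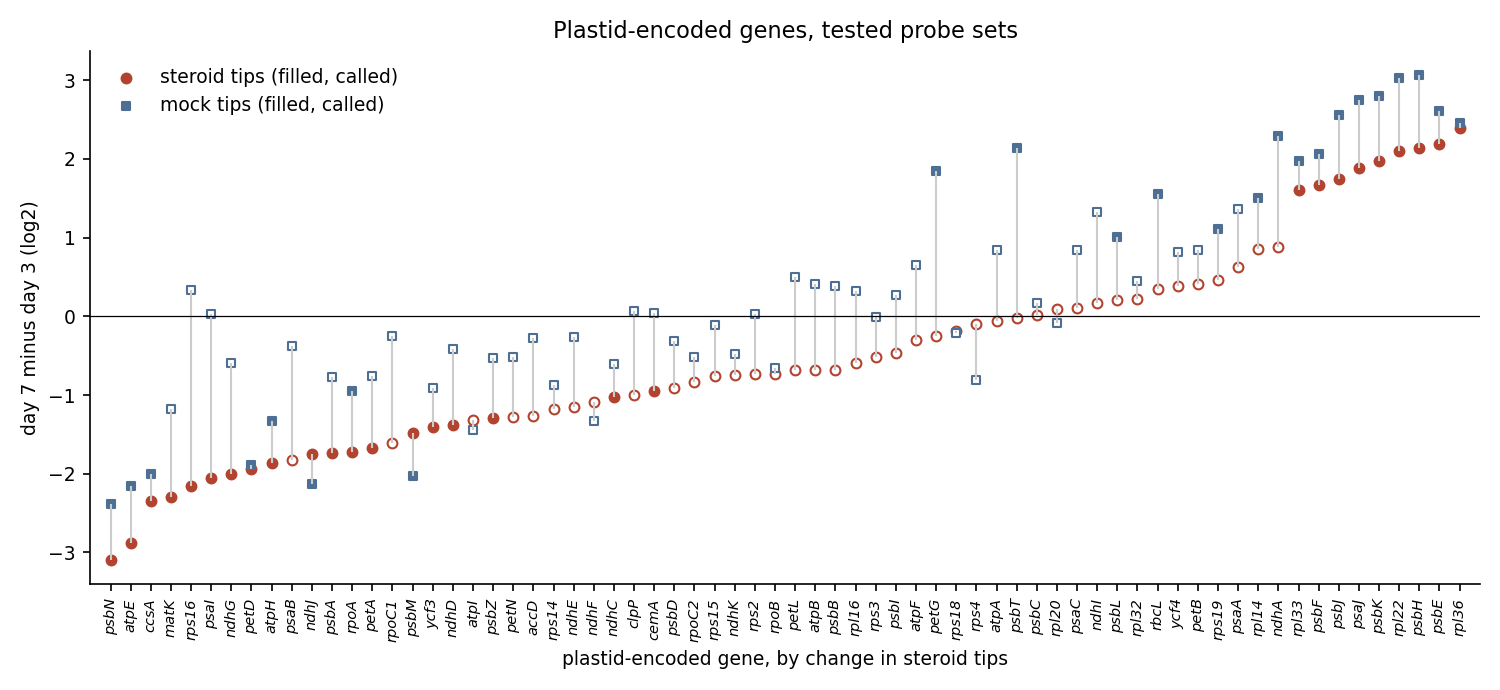
Change from day 3 to day 7 (log2) of 68 tested plastid-encoded genes, ordered by their change in steroid tips, with steroid tips as circles, mock tips as squares and filled symbols for called changes. In 61 genes the circle lies below the square, and the 9 called rises in steroid tips are rises in mock tips too.

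Genes for cell expansion held some of the largest rises, but most of their family members were not called. Of 39 tested genes for wall loosening, xyloglucan and pectin, 5 were higher and 3 lower in steroid tips, against 15.2% and 10.3% of all tested probe sets. Their median change was -0.33. Expansins loosen cell walls during growth, and 3 of them led the rises. EXPA15 read 44.4 and 39.4 on day 3 and 369 and 354 on day 7, EXPB3 read 54.5 and 51.0, then 511 and 504, and EXPA4 read 19.7 and 7.03, then 204 and 216. No day 7 array came near the day 3 range, and the rises were 2.99 ± 0.22 (adjusted p = 3.69e-06), 3.17 ± 0.24 (adjusted p = 4.22e-06) and 3.69 ± 0.54 (adjusted p = 0.000476). Mock tips rose by 3.37, 2.72 and 4.16.

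The xyloglucan endotransglucosylase/hydrolase gene XTH32 rose by 1.24 ± 0.35 in steroid tips and 1.70 in mock tips. The TRICHOME BIREFRINGENCE-LIKE family, whose known members acetylate wall polysaccharides, went both ways. TBL26 read 46.3 and 44.9 on day 3 and 103 and 109 on day 7, a rise of 1.15 ± 0.22 (adjusted p = 0.0025). In mock tips TBL26 changed by 0.43 and was not called. TBL39, TBL37 and TBL18 fell by 0.77, 0.83 and 0.70. All of these falls changed sign where the arrays were left unscaled, and the TBL37 and TBL18 calls were lost with scan as a random block. Of 12 genes of cellulose and the secondary wall 3 were higher and 0 lower (25% called, against 25.4% of all tested probe sets). IRX15-L rose by 1.46, the xyloglucan synthase gene CSLC04 by 1.40 and COB, which orients cellulose deposition in expanding cells, by 0.98. These 3 calls were lost with scan as a random block.

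Gibberellin promotes organ growth by removing DELLA repressors. Of 5 tested genes of its receptor pathway 4 were higher (80%, against 15.2% of all tested probe sets). The receptor gene GID1A read 26.1 and 14.3 on day 3 and 153 and 189 on day 7 in steroid tips, and GID1B read 8.63 and 22.1, then 81.1 and 94.8. Their day 7 arrays lay well above both day 3 arrays, rises of 2.87 ± 0.39 (adjusted p = 0.000271) and 2.31 ± 0.56 (adjusted p = 0.0101). SLY1, the F-box protein that targets DELLA proteins, and its relative SLY2 rose by 1.41 ± 0.30 and 1.18 ± 0.27. The third receptor gene, GID1C, read 18.9 and 23.1, then 21.4 and 22.8, and its change of 0.06 ± 0.36 was not called. The same 4 genes rose in mock tips, by 0.80 to 3.36. With scan as a random block 2 of the 5 were called.

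Of 13 auxin genes tested 1 was called (7.69%, against 25.4% of all tested probe sets). It was WES1, which encodes GH3.5, an enzyme that conjugates auxin to amino acids. It read 56.2 and 76.4 on day 3 and 219.8 and 281 on day 7 and rose by 1.86 ± 0.29 (adjusted p = 0.000831), with 2.44 in mock tips. The remaining 12 included auxin synthesis genes of the YUCCA family, of which YUC2, YUC4 and YUC6 changed by -0.21, 0.15 and 0.98. Their low signals gave wide errors, 0.98 ± 0.62 for YUC6. Growth regulators of the TCP family include TCP15, which read 31.4 and 34.9 on day 3 and 252 and 244 on day 7. Its change of 2.75 ± 0.23 (adjusted p = 1.18e-05) came with a mock rise of 2.18. LHW, a bHLH factor of vascular cell number, rose by 1.18 ± 0.23.

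**Figure D3:**
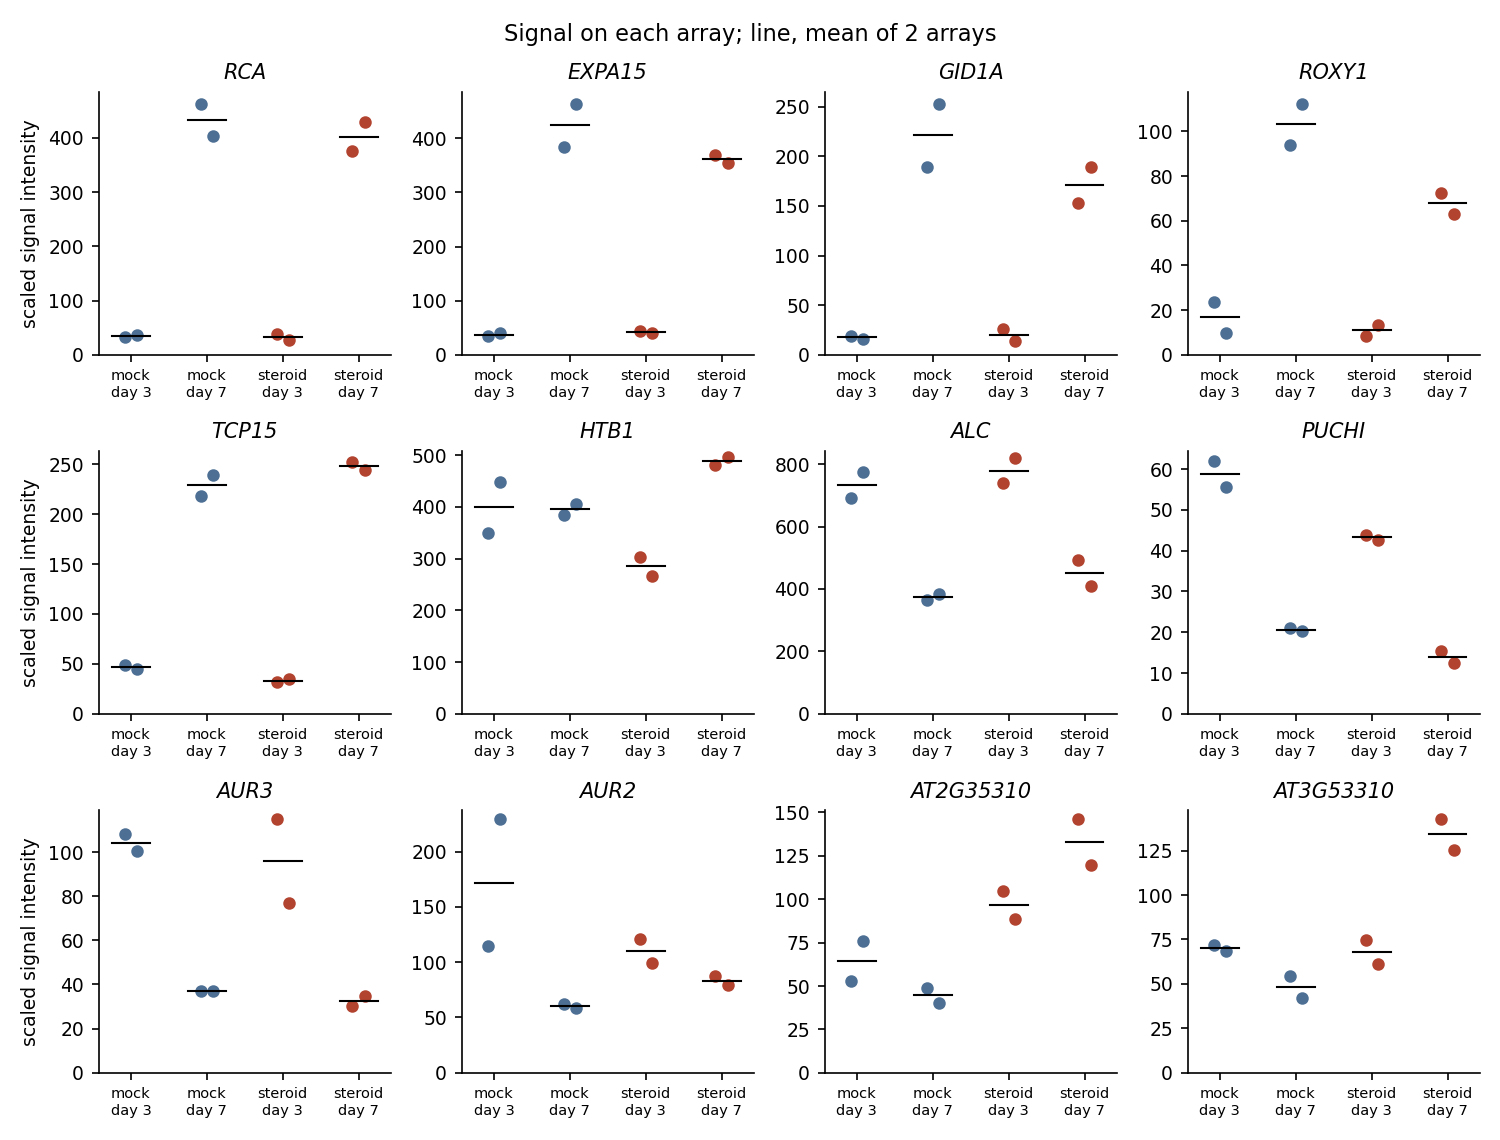
Scaled signal intensity on each array (points) and mean of 2 arrays (lines) for 12 genes in mock and steroid tips on days 3 and 7. RCA, EXPA15, GID1A, ROXY1 and TCP15 are higher on day 7 in both treatments, ALC, PUCHI and AUR3 are lower in both, and the last row's AUR2, AT2G35310 and AT3G53310 end day 7 higher in steroid than in mock tips.

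Regulators of carpels and ovules that bear a name in the table more often fell than rose. Of 8 genes of carpel, ovule and fruit 4 were lower and 1 higher in steroid tips (62.5% called, 25.4% over all probe sets). Their median change was -0.57. Mock tips gave 5 lower and 1 higher, with a median of -0.70. ALC, a bHLH factor of the fruit valve margin, read 739.9 and 819 on day 3 and 492 and 409 on day 7. Both later arrays were below both earlier ones, a change of -0.79 ± 0.22 (adjusted p = 0.0215), while mock tips changed by -0.96. SPT, its relative in carpel fusion, read 145 and 131, then 116 and 101.42, and was not called at -0.34 ± 0.19, although it fell by 0.75 in mock tips.

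INO, a YABBY factor of the outer ovule integument, read 21.8 and 24.2 on day 3 and 7.53 and 9.93 on day 7, a change of -1.07 ± 0.33. TSO1, a regulator of division and growth in floral tissue, and HLL, which encodes a mitochondrial ribosomal protein needed for ovule growth, fell by 0.79 and 0.75. SEU, a transcriptional co-repressor that partners LEUNIG, was the gene that rose, from 87.0 and 56.4 to 149 and 126, by 0.92 ± 0.22 (adjusted p = 0.00885). With scan as a random block 0 of the 8 genes were called lower, and SEU lost its call without steroid day 3 replicate 2 or day 7 replicate 1.

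Of 3 tested anther genes 1 was called (33.3%, against 25.4% of all tested probe sets). ROXY1, a glutaredoxin of petal and anther development, read 8.63 and 13.4 in steroid tips on day 3 and 72.7 and 63.2 on day 7. All day 7 signals lay above the day 3 range, a rise of 2.25 ± 0.46 (adjusted p = 0.00375), and mock tips rose by 2.42, from 23.8 and 9.79 to 93.9 and 112. EMS1, the receptor kinase that specifies the tapetum, read 106 and 125, then 69.7 and 66.7, with a change of -0.72 ± 0.26 that was not called (adjusted p = 0.0588). SWEET8, a sugar transporter needed for pollen, changed by -0.24 ± 0.68 between day 3 arrays as far apart as 1.54 and 27.9. Of 3 meiosis genes 2 were lower (66.7%, against 10.3% of all tested probe sets). ZYP1b of the synaptonemal complex fell by 1.62 and RCK, a crossover helicase, by 1.34. Their day 7 signals of 6.77 and 5.66 and of 8.99 and 4.47 were close to the offset, and neither call held with scan as a random block.

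Meristem and floral identity genes gave 2 falls among 7 tested (28.6%, near the 25.4% called over all probe sets) and no rise, with a median of -0.28. PUCHI, an AP2-family factor of early floral meristem fate, read 43.9 and 42.7 on day 3 and 15.3 and 12.5 on day 7. Arrays of different days were well apart, a change of -1.39 ± 0.31 (adjusted p = 0.00663), with -1.34 in mock tips. Without steroid day 7 replicate 2 that call was lost. AGL42, a MADS-box relative of the flowering gene SOC1, changed by -0.67 ± 0.22, from 261 and 240.2 to 147 and 164, a call lost with scan as a random block. The stem cell signal CLV3 read 19.5 and 16.8, then 14.0 and 12.7, a change of -0.34 ± 0.43 that was not called, and mock tips changed by -1.06. FD, the bZIP partner of florigen, changed by 0.21 in steroid tips and rose by 1.02 in mock tips, a difference of -0.81 ± 0.36 (unadjusted p = 0.0433). AGL24, AGL71 and AGL72 were not called, at -0.28, -0.26 and -0.17.

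REM genes encode B3-domain proteins of reproductive meristems, and none of the 5 tested was called in either treatment. In steroid tips 4 of the 5 had changes above 0, with a median of 0.44, and in mock tips 1 of the 5 did, with a median of -0.48. AT2G35310 read 105 and 88.7 on day 3 and 146 and 120.0 on day 7 in steroid tips, against 52.7 and 75.9, then 48.7 and 40.5, in mock tips. The steroid arrays were higher on day 7 and the mock arrays lower, a difference of changes of 0.91 ± 0.32 (unadjusted p = 0.0134). For AT2G16210 and AT5G09780 that difference was 1.43 ± 0.60 (unadjusted p = 0.0342) and 1.72 ± 0.67 (unadjusted p = 0.0236). REM22 read 39.7 and 22.9, then 78.1 and 87.2, in steroid tips, a change of 1.33 ± 0.51 (adjusted p = 0.0711). Its mock arrays, at 1.08 and 12.027 and then 7.34 and 5.97, all lay below every steroid array of days 3 and 7. None of these differences passed adjustment.

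Genes of DNA replication and division gave 1 rise and 2 falls among 9 tested in steroid tips, against 1 rise and 5 falls in mock tips. In steroid tips 33.3% were thus called, against 25.4% of all tested probe sets. The medians were -0.38 in steroid tips and -1.02 in mock tips. AUR3, an Aurora kinase of mitosis, read 115 and 77.1 on day 3 and 30.3 and 34.6 on day 7 and changed by -1.42 ± 0.23 (adjusted p = 0.001), with -1.39 in mock tips. Its relatives AUR1 and AUR2 were not called in steroid tips, at -0.19 ± 0.26 and -0.38 ± 0.26. In mock tips they fell by 1.02 and 1.37, and AUR2 went from 115 and 229 to 62.0 and 58.2. The differences of changes were 0.82 ± 0.36 (unadjusted p = 0.0414) and 0.99 ± 0.37 (unadjusted p = 0.0205), and neither passed adjustment. ICU2, the catalytic subunit of DNA polymerase alpha, fell by 0.82, and POLD3, a subunit of DNA polymerase delta, rose by 0.74. The ICU2 and POLD3 calls were lost with scan as a random block.

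Of 7 histone genes tested, 4 were higher and 0 lower in steroid tips (57.1% called, against 25.4% of all tested probe sets). Their median change was 0.91, against 1 higher in mock tips and a median of 0.40. HON4, which encodes a linker-histone-related protein, read 52.5 and 56.3 on day 3 and 327 and 272 on day 7, a rise of 2.37 ± 0.18 (adjusted p = 6.18e-06) that mock tips shared at 2.33. The other rises were in genes for core histone H2B. HTB1 read 304 and 267, then 481 and 497, in steroid tips and 349.7 and 449, then 385 and 406, in mock tips. Days did not overlap in steroid tips and did in mock tips, with a change of 0.77 ± 0.21 in steroid tips and a difference of 0.77 ± 0.30 (unadjusted p = 0.0215). HTB2 and HTB4 rose by 1.07 ± 0.26 and 0.91 ± 0.29 in steroid tips. With scan as a random block, without steroid day 3 replicate 2 or without either day 7 replicate, 1 of the 7 was called.

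Vesicle traffic genes gave 9 rises and 2 falls among 33 tested, 33.3% called against 25.4% of all tested probe sets. Mock tips gave 9 and 4, with medians of 0.22 in steroid tips and 0.25 in mock tips. SEC10 and SEC6 belong to the exocyst, which tethers secretory vesicles to the plasma membrane. SEC10 read 41.3 and 58.9 on day 3 and 171 and 156 on day 7 and rose by 1.64 ± 0.22 (adjusted p = 0.00029), and SEC6 rose by 1.32 ± 0.26. SNF7.2, of the ESCRT-III complex that sorts membrane proteins to the vacuole, rose by 2.82 ± 0.47, and VPS24.1 of the same complex fell by 0.78. The prenylated Rab acceptor genes PRA7, PRA8, PRA1.B4, PRA1.B1 and PRA1.A1 rose by 2.57, 1.75, 1.78, 1.27 and 0.82. Among 11 autophagy genes 2 were lower (18.2% called, against 25.4% of all tested probe sets) and none was higher. These were the ubiquitin-like ATG8D and ATG8C, which fell by 1.15 and 0.92. Of 12 nuclear genes of respiration 4 were higher (33.3%, against 15.2% of all tested probe sets). Cytochrome c genes CYTC-1 and CYTC-2 rose by 1.14 and 1.101, the isocitrate dehydrogenase gene IDH-V by 0.83 and MDH by 0.94. MDH is annotated here as a plastid malate dehydrogenase, which acts outside respiration.

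Of 14 signalling peptides and defensins 5 were higher and 1 lower (42.9% called, against 25.4% of all tested probe sets). RALFL22, of the rapid alkalinization factor family, read 1.93 and 0.617 on day 3 and 45.2 and 50.009 on day 7 in steroid tips. The days were far apart, and the change with the offset was 3.22 ± 0.39 (adjusted p = 0.000133), with 1.87 in mock tips. Both day 3 signals lay below the offset, so the size of this change depends on the offset. RALFL34 rose by 0.94 ± 0.22 and the CLAVATA3-related peptide gene CLE27 by 2.22 ± 0.57, and CLE41, a peptide of vascular stem cells, fell by 0.75. The defensin genes LCR68 and LCR69 rose by 2.56 ± 0.35 and 1.34 ± 0.40. LCR69 was bright throughout, at 981 and 1073 on day 3 and 2743 and 2488 on day 7, and its mock change of 0.37 was not called. Its steroid call was lost in 6 of 18 alternatives, scan as a random block among them. The CLE27 call was lost in 3 of 17, and the CLE41 call with scan as a random block.

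Sugar transporters of the SWEET group and their relatives gave 2 rises among 15 tested (13.3% called, against 25.4% of all tested probe sets). SWEET17, a vacuolar fructose transporter, read 59.998 and 38.2 on day 3 and 95.8 and 125 on day 7 and rose by 1.12 ± 0.28 (adjusted p = 0.0108), against 0.35 in mock tips. SFP1 rose by 1.87 ± 0.55, a call lost in 5 of 17 alternatives, scan as a random block among them. SWEET10 read 304 and 50.5 on the day 3 arrays, a spread wider than its change of 1.51 ± 0.66. Its day 7 signals of 316 and 422 were higher than the 140.1 and 107 of mock tips.

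**Figure D4:**
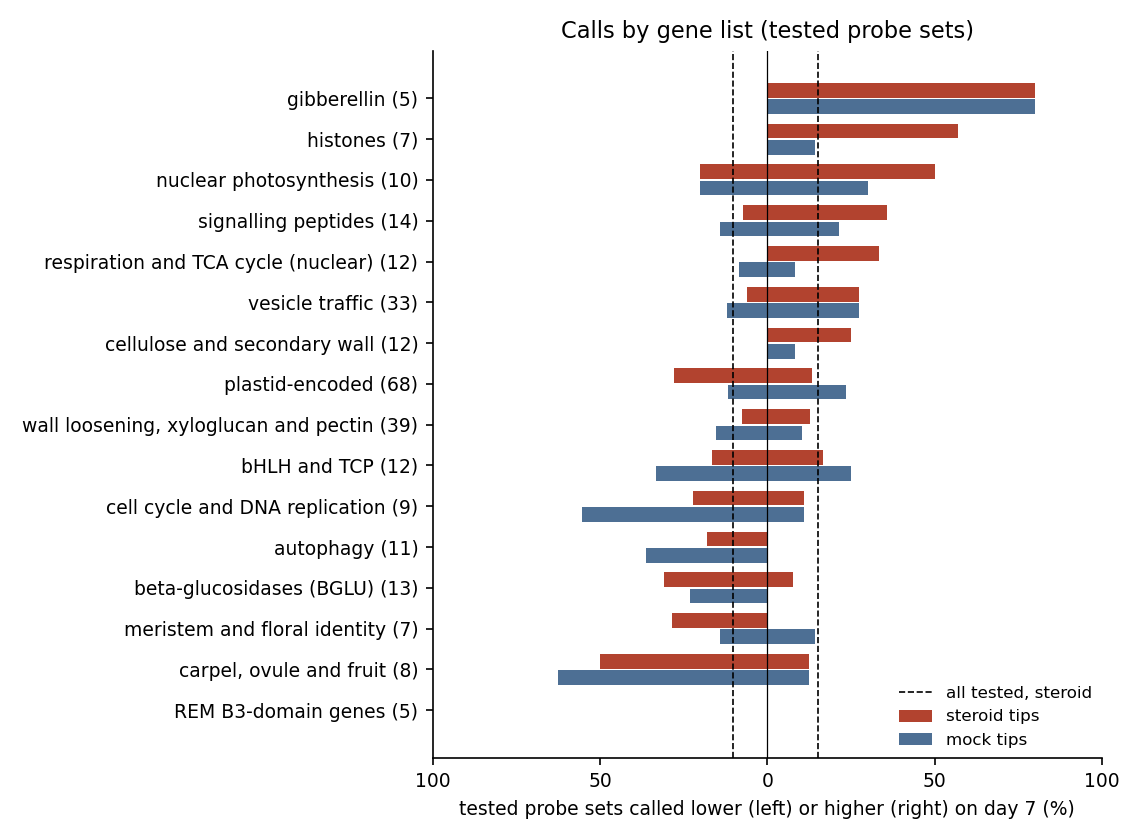
Share of tested probe sets called higher (right) or lower (left) on day 7 in steroid and mock tips for 16 gene lists, with the number tested in brackets. Dashed lines mark the shares over all 16511 tested probe sets in steroid tips, 15.2% higher and 10.3% lower.

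Among all tested probe sets 25.4% were called, and several of the remaining families lay near that share. Glycosyltransferases of the UGT family gave 4 rises and 2 falls among 23 tested, and beta-glucosidases 1 rise and 4 falls among 13. None of 22 serine carboxypeptidase-like genes was called, and 5 of them fell in mock tips. Genes of the TRM and IQD families, which act on microtubules and organ shape, gave 2 rises and 3 falls among 27. Genes of RNA polymerase, splicing and mRNA handling gave 3 rises and 3 falls among 29, and ubiquitin ligases, conjugases and proteases 1 rise and 4 falls among 28. Among 17 MADS-box genes AGL26 rose by 1.19, and AGL42 and AGL80 fell by 0.67 and 1.48. All 3 calls were lost with scan as a random block and without either steroid day 7 array, and AGL80 lost its call in 12 of 18 alternatives. Tubulin and actin genes gave 2 rises, TUB5 and TUB9, and 2 falls, the myosin genes XIJ and XI-I, among 12. NGATHA and YABBY genes gave 1 fall, INO, among 6.

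The smaller or less specific groups are also set against 25.4% called over all tested probe sets, 15.2% higher and 10.3% lower. Phenylpropanoid and flavonoid genes gave 2 rises and 1 fall among 11 (27.3% called). Cold and dehydration genes gave 2 rises and 1 fall among 10 (30%). bHLH and TCP factors gave 2 rises and 2 falls among 12 (33.3%), and bZIP factors 2 rises and no fall among 14 (14.3%). Cytochrome P450 genes gave 2 falls among 10 (20%) and tetraspanins 1 rise and 2 falls among 9 (33.3%). Glutathione transferases gave 1 rise and 1 fall among 7 (28.6%). Jasmonate genes gave 2 rises among only 3 tested (66.7%). Chromatin remodelling genes gave 1 rise and 1 fall among 12 (16.7%), and organelle RNA editing genes 1 fall among 13 (7.69%). No call was made among 6 NAC, WRKY and ERF genes, 4 heat shock genes and 4 seed storage genes.

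Most of the largest changes were in genes that the table names by a locus identifier only. Of all steroid calls 72.2% were also called in mock tips. All 12 of the largest named rises were, and 8 of the 12 largest named falls. A difference between rises and falls in this share was not tested. Among genes with a single name the largest rise was in AT4G29030, from 101.13 and 84.1 on day 3 to 2311 and 2002 on day 7 in steroid tips. That is 4.48 ± 0.76 on the log2 scale (22.3-fold, adjusted p = 0.00124), with 3.56 in mock tips. Rises of AT3G07660, AT1G47970, AT3G05500, AT3G56480 and AT2G37220 were 4.35, 4.35, 4.30, 4.05 and 3.999. AT2G37220 read 15.9 and 15.5 on day 3 and 293 and 342 on day 7. AT3G07660 began at 0.924 and 2.34, below the offset, which leaves its fold uncertain.

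The largest fall over all tested probe sets was in AT5G49640, from 260.1 and 376 on day 3 to 7.57 and 4.03 on day 7. This signal went from far above the array median to well below it, a change of -4.99 ± 0.23 in steroid tips (adjusted p = 2.62e-07) and -4.38 in mock tips. AT3G20900 and AT5G21020 followed at -3.94 ± 0.47 and -3.21 ± 0.37. Among probe sets with no single name the largest rise was 5.35 ± 0.82 and the largest fall had a change of -3.12 ± 0.42.

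Day 1 signals of 5 genes with large changes, chosen after their values were seen, are set beside those above. RCA read 59.9 and 22.7 in steroid tips on day 1, EXPA15 read 36.9 and 43.0 and TCP15 read 30.4 and 37.1. AUR3 read 106 and 82.4 and AT5G49640 read 266 and 265. In each of these genes both day 7 arrays lay outside the range of the 4 steroid arrays of days 1 and 3. That partly follows from the choice of genes with large changes. Against day 3 alone, both day 7 arrays lay above in 32.8% of all tested probe sets and below in 35.8%. The share over all probe sets with day 1 included was not counted. REM22, which was not called, also had both day 7 arrays above its arrays of days 1 and 3. Its day 1 signals of 6.03 and 10.0 lay below both of its day 3 arrays, whereas days 1 and 3 overlapped in the 5 genes. Of the day 3 arrays, steroid replicate 2 shared a scan session with day 1 arrays, and the step from day 1 to day 3 was not tested.

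Whether the change from day 3 to day 7 differed between steroid and mock tips was tested directly. With limma, 0 of 16511 probe sets (0%) passed adjustment and 399 (2.42%) had an unadjusted p under 0.05, fewer than the 826 that evenly spread p-values would give. The unadjusted values given for single genes are to be read against that count. The median SE of this difference was 0.44 with 2 arrays per group. A p that misses the threshold does not show that the treatments changed alike. Among probe sets with a single name, the smallest p belonged to AT5G66800. This gene read 13.4 and 15.1 on day 3 and 49.2 and 38.7 on day 7 in steroid tips. Its mock signals went from 38.6 and 27.6 to 22.5 and 22.976. Steroid arrays were higher and mock arrays lower on day 7 without overlap, and the difference of changes was 1.82 ± 0.41 (unadjusted p = 0.000634).

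AT3G53310 showed the same pattern at brighter signal. It read 74.9 and 61.1, then 143 and 126, in steroid tips and 72.1 and 68.6, then 54.4 and 42.3, in mock tips. The treatments were alike on day 3 and apart on day 7, a difference of 1.45 ± 0.32 (unadjusted p = 0.000637). AT1G58110 differed by 2.28 ± 0.54, with a low steroid signal on day 3 of 1.46 and 4.07 against 22.5 and 24.7 in mock tips. Of the 4200 steroid calls, 435 had a mock change under 0.5 in size, and 155 of these were at least 2-fold. AT1G01250 and AT1G73620 were among them, with steroid changes of 2.41 ± 0.55 and 2.33 ± 0.61 and mock changes of 0.04 and 0.14. On day 7 itself 9 probe sets (0.0545%) passed adjustment between steroid and mock tips, which were scanned in separate sessions. On day 3 there were 3 (0.0182%). Both counts used a variance per probe set that was shared by the arrays of all days. The median residual standard deviation within a group was 0.104 in mock and 0.108 in steroid tips on day 7, against 0.225 and 0.296 on day 3. The noisier arrays thus widened the errors of the day 7 comparison, and its low count does not show that the tips were alike.

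Position along the transcript moved with day in the array controls. The GAPDH control changed by 0.88 at its 3′ end, 3.01 in the middle and 3.68 at its 5′ end in steroid tips, and by 0.47, 2.66 and 3.21 in mock tips. The ubiquitin control changed by 0.28 at the 3′ end and 1.60 at the 5′ end. The actin control did not follow this order, with 1.58 at the 3′ end, 3.50 in the middle and 0.90 at the 5′ end. A second set of controls gave 3.50 and 4.48 at the 3′ and 5′ ends of GAPDH and 2.43, 3.40 and 4.61 from the 3′ to the 5′ end of actin. Probe sets of 1 control transcript thus changed by unequal amounts in the same tips. Among named genes with more than 1 tested probe set, 95 in number, 47 had at least 1 call, 10 were called in all their probe sets and 6 of those in 1 direction. The median range of change within such a gene was 1.1 on the log2 scale.

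PWD, which encodes the phosphoglucan, water dikinase of starch breakdown, was called in both directions. One of its probe sets read 88.1 and 80.2 on day 3 and 142 and 176 on day 7, a change of 0.88. The other read 70.4 and 64.9, then 18.9 and 26.9, a change of -1.42. AT2G07360, AT4G16180 and AT4G17140 also had calls in opposite directions. The part of probe position in the changes of single genes was not tested.

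**Figure D5:**
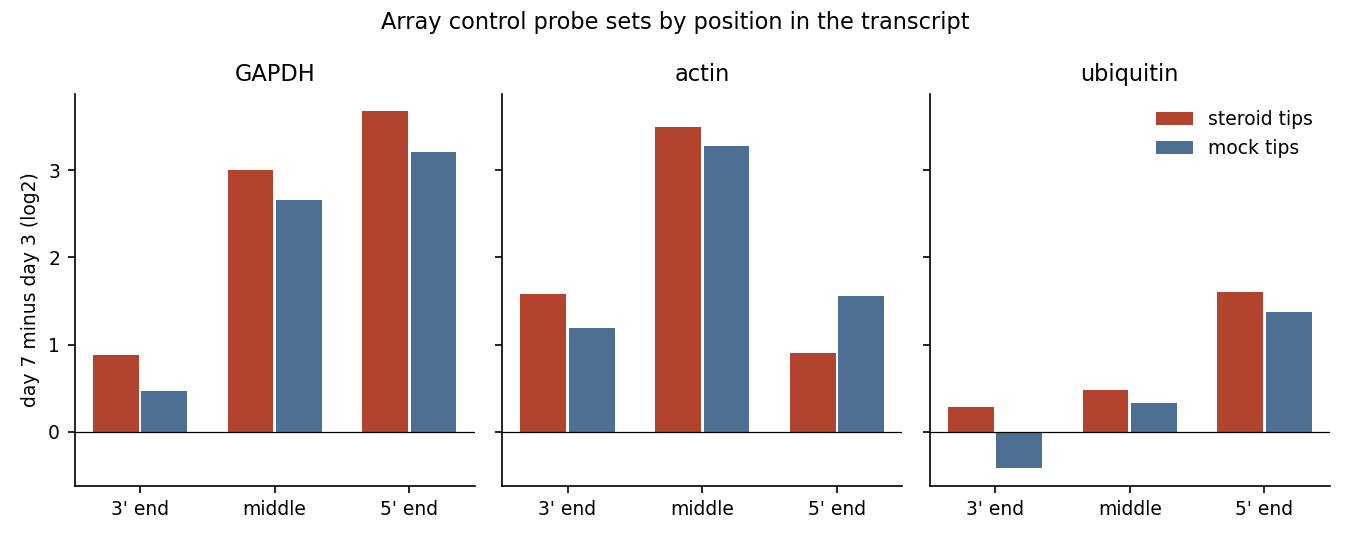
Change from day 3 to day 7 (log2) of array control probe sets at the 3′ end, middle and 5′ end of GAPDH, actin and ubiquitin in steroid and mock tips, 1 bar per probe set from means of 2 arrays. GAPDH rises from 0.88 at the 3′ end to 3.68 at the 5′ end in steroid tips, and mock tips follow the same order.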

How the data were processed

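RNA of inflorescence apices (6 µg per sample) was hybridised to Affymetrix ATH1 arrays, and the submitters' processing notes name MAS5 without a version or scaling target. The deposited table holds 1 signal intensity per probe set on a linear scale, with 22746 probe sets besides 64 controls. Each array was scaled to a common median of 24.8, 4.35 (the median over arrays of the 20th percentile) was added, and log2 was taken. Probe sets above the 40th percentile on at least 2 of 12 arrays were tested (16511). All 12 arrays entered 1 linear model with 6 residual degrees of freedom in limma 3.58.1 (R 4.3.3, lmFit and eBayes with a trend), two-sided, with Benjamini-Hochberg adjustment over all tested probe sets and a threshold of 0.05. The fit was tested on simulated data. An exact permutation test of 2 against 2 cannot go below 0.333. Scan sessions were read from the array files. The table of gene names gives 1 gene to 13513 probe sets, of which 13436 matched the annotation, and no single gene to the others. The rule for named genes took the 12 largest called changes each way and 3 without a name. Up to 3 called members each way per gene list were added, or the member with the smallest p where none was called. Among probe sets with a single name, the 6 smallest p for the difference of changes were added. So were the 6 single-named steroid calls each way furthest from mock. Other list members are given to complete a list. The members and lists were chosen with earlier results of these data known. Alternatives varied scaling, offset, filter, arrays, weights, variance prior, blocks and replicates. Sequences were not used here.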

Additional observations from a re-analysis of the deposited data

Results flagged for a closer look

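Among the genes picked for description and the tested members of the gene lists, 21 had steroid and mock arrays that moved in opposite directions from day 3 to day 7 without overlap in either treatment. Over all tested probe sets, arrays lay higher without overlap in 32.8% and lower in 35.8% in steroid tips, and 31.1% and 42.3% in mock tips. The changes had the same sign in both treatments in 83.7%. The share over all probe sets that moved in opposite directions without overlap was not counted. Some of the 21 were picked for their difference between treatments, so their flag partly follows from that choice. The difference of changes was tested with limma and did not pass adjustment for any of the 21. On day 7 the treatments were scanned in separate sessions. In log2 units the difference was above 0 in 13 genes: AT4G28550 (1.85), AT5G66800 (1.82), AT5G57720 (1.82), AT3G53310 (1.45), IQD19 (1.17), AT2G35310 (0.91), ACT11 (0.78), GH3.3 (0.67), HTR12 (0.63), XTH16 (0.58), SPR1 (0.52), SDH2-2 (0.48) and SCPL27 (0.17). It was below 0 in 8 genes: AT3G25280 (-2.36), AT5G39560 (-2.15), AT2G21310 (-1.97), the plastid genes petL (-1.18) and psbB (-1.06), GH3.9 (-1.05), the mitochondrial gene ccb382 (-1.05) and SEC15B (-0.44). AT5G39560, AT3G25280 and AT2G21310 read below the offset of 4.35 on both mock arrays of day 3.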

How the results depend on the processing

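The steroid count of 4200 became 10817 without scaling (10782 higher and 35 lower), 2030 with scan as a random block (correlation within scans 0.402) and 2611 over probe sets above a signal of 24 on all arrays of days 3 and 7, a count added after seeing the data. Leaving out 1 array gave 1649 to 3564. The mock count of 4507 became 12393, 1712 and 2861 under the same settings and 1746 to 3196 without 1 array, and mock day 3 replicate 1, day 7 replicate 1 and day 7 replicate 2 lowered it furthest, to 2387, 1829 and 1746. The steroid minus mock difference gave 1 call without scaling and 0 otherwise. Rises made up 49.6% of steroid calls with quantile normalization and 48.8% with centring, against 59.7%, and without steroid day 3 replicate 1 or 2 they made up 71.2% and 51.8%. Of 147 called probe sets picked for description, 51 passed under every alternative. Without scaling 33 reversed to DI21 0.37, ICU2 0.62, ALC 0.72, AGL42 0.82, THO5 0.94, NRPB12 0.77, VPS24.1 0.67, UGT76C1 0.097, XIJ 0.014, SBPASE 0.53, iqd21 0.31, GSTU27 0.43, XI-I 0.45, TET7 0.67, TBL18 0.72, MED9 0.34, TBL37 0.61, UBC19 0.50, AtSec20 0.38, CLE41 0.68, bHLH34 0.64, TSO1 0.70, BGLU25 0.56, PUB43 0.29, UGT80B1 0.65, CYP71B28 0.31, INO 0.098, TBL39 0.71, ATG8C 0.56, ATG8D 0.33, CYP71B6 0.52, PGY1 0.57 and PSBW 0.69, since the day 7 arrays were brighter. The sample titles state no pairing by replicate number. Deviations of same-numbered arrays correlated at -0.027 between steroid days and 0.0005 between mock days. Between treatments they correlated at 0.0996 on day 3 and 0.0883 on day 7. From 2 arrays per group these values cannot show whether samples were paired. A replicate block gave 4561 steroid calls, 4895 mock calls and 0 for the difference. With 2 arrays per group, a lone array left after an omission is assumed to vary like the other groups, and signals near the offset carry the widest errors.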
